A study of Mus musculus with 16 samples.

Results

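The 10 genes described here encode receptors for extracellular nucleotides and adenosine, and the cell surface enzymes that convert the nucleotides to adenosine. They were chosen by gene symbol, and all 10 were found among the 24411 genes of the deposited tables. They comprise the ATP-gated channels P2rx4, P2rx5 and P2rx7, the nucleotide receptors P2ry1 and P2ry6, the ectonucleotidases Entpd1, Entpd2 and Nt5e, and the adenosine receptors Adora1 and Adora2a. All 10 were among the 16091 genes tested, which had a mean TPM (a level scaled to transcript length and to the size of the library) above 1 in at least 1 condition.

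Damaged and active cells release ATP. Outside the cell it opens P2X channels and, with its breakdown products, activates P2Y receptors coupled to G proteins. Ectonucleotidases of the Entpd family remove phosphates from ATP and ADP, and the enzyme encoded by Nt5e (CD73) turns the resulting AMP into adenosine, which acts on its own receptors. In spinal cord and brain this system is known for guiding microglia to injury, for inflammasome activation and pain, and for damping synaptic transmission through adenosine.

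RNA from spinal cord was sequenced for 16 female C57BL/6J mice. Of these, 7 received atorvastatin after spinal cord injury (SCI + Atorvastatin, n = 7), 7 received only the solvent (SCI + Vehicle, n = 7), and 2 were left uninjured and untreated (Uninjured Control, n = 2). Injury was a lateral compression to 0.25 mm at 12 weeks of age, daily treatment (atorvastatin at 10 mg/kg) ran for 4 weeks from week 2 after injury, and cord was taken at week 6 as a 5 mm segment around the lesion or the matching level. The vehicle of DMSO, PEG 400, Tween 80 and saline was shared by both injured groups, and the Uninjured Control mice received none of it and are described in the series design as a baseline aged 12 weeks (the study's methods give another age), so injury, the anaesthesia for it, vehicle and age cannot be told apart in comparisons with them. The labels describe each library as a biological replicate.

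The libraries held 14823292 to 25579826 counts. Both Uninjured Control libraries stood apart: counts were found for 12732 and 12356 genes in them, against 16399 to 19338 genes in the SCI mice, and across genes their log2(counts + 1) correlated at 0.75 with each other (highest between any 2 libraries, 0.969). They also held liver transcripts (8 genes, with Alb, Apoa1 and Apoa2 listed first) at a summed 706 and 4140 CPM (counts scaled to library size with the TMM method), against 0.793 to 6.73 in the SCI mice, and all 8 were called lower in both comparisons. Both comparisons with uninjured cord share these 2 mice, so each result was also computed against each of them alone. A fit with 1 control mouse holds no spread between controls, so only its log2 difference is given. The markers Gfap of astrocytes, Mbp of oligodendrocytes and Snap25 of neurons were at 1100 CPM or more in every mouse. The part of the liver RNA in the comparisons with uninjured cord was not tested.

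The channel genes P2rx7 and P2rx4 were higher in every SCI mouse than in either Uninjured Control mouse, and they are neighbours on the genome. In GRCm38, P2rx7 lies on the plus strand of chromosome 5 at 122643911 to 122691432, and P2rx4 starts 16111 bases after its end, at 122707544 to 122729738 on the same strand. Their promoter sequences are shown because the genes moved together, with each C followed by G (CpG, the site of DNA methylation) in capitals. Each window covers the 250 bases before a RefSeq transcription start in GRCm38.p6, chr5:122643677-122643926 for P2rx7 and chr5:122707294-122707543 for P2rx4, plus strand.
P2rx7: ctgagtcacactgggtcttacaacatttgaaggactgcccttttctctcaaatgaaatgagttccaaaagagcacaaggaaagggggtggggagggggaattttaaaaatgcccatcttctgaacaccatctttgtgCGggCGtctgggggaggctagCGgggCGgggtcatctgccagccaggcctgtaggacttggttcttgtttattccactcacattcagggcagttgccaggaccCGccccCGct
P2rx4: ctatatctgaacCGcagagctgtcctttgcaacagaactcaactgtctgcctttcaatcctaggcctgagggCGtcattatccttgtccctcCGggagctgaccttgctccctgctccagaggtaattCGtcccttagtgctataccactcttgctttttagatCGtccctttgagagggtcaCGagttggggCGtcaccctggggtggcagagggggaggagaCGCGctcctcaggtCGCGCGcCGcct
The P2rx7 window shown held 6 CpG and was 53.6% G or C (a second RefSeq start of P2rx7, with a window at chr5:122650133-122650382, had 4 CpG and 50.0%), and the P2rx4 window held 13 and was 57.2%, where the medians over all windows of this length were 6 CpG and 52.4%. RefSeq promoter windows were found for 7 of the 10 genes, 10 windows in all, and not for P2rx5, P2ry6 or Adora2a. The letters GAGGAAGT, bound by the myeloid factor PU.1, occurred on either strand in 2.44% of 32851 windows of the same length and in none of these 10, and GGAA, which lies within those letters, in 93.4% of all windows and in 9 of the 10.

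Injury with vehicle was compared with uninjured cord to ask which of these genes differed 6 weeks after SCI. P2rx4, P2rx7 and P2ry6 rose, none of the 10 fell, and the other 7 did not pass the test. A gene was called at an adjusted p below 0.05 and at least a 1.25-fold change. With this rule 19.9% of all genes tested were higher and 9.91% lower, so 3 of 10 higher and 0 of 10 lower is near the background and is no result about the genes as a group. P2rx4 and P2ry6 met the filter on TPM in the SCI groups and not in Uninjured Control, so that they had to differ. They are 2 of the 3 genes called, and their adjusted p and these counts are a description. The other 8 genes met the filter in all 3 groups. The median log2 fold change of the 10 genes was 1.02, and that of all genes tested was 0.172. Setting P2ry6 at its fold over a limit of 3 counts per control library could not move the median of 1.02, because P2ry6 stays the highest of the 10. The levels in CPM of 4 genes (P2rx4, P2rx7, P2ry6 and Entpd1) did not overlap between SCI + Vehicle and Uninjured Control, all higher after injury, where 25.2% of all genes were separated upwards in this way and 10.7% downwards.

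**Figure D1:**
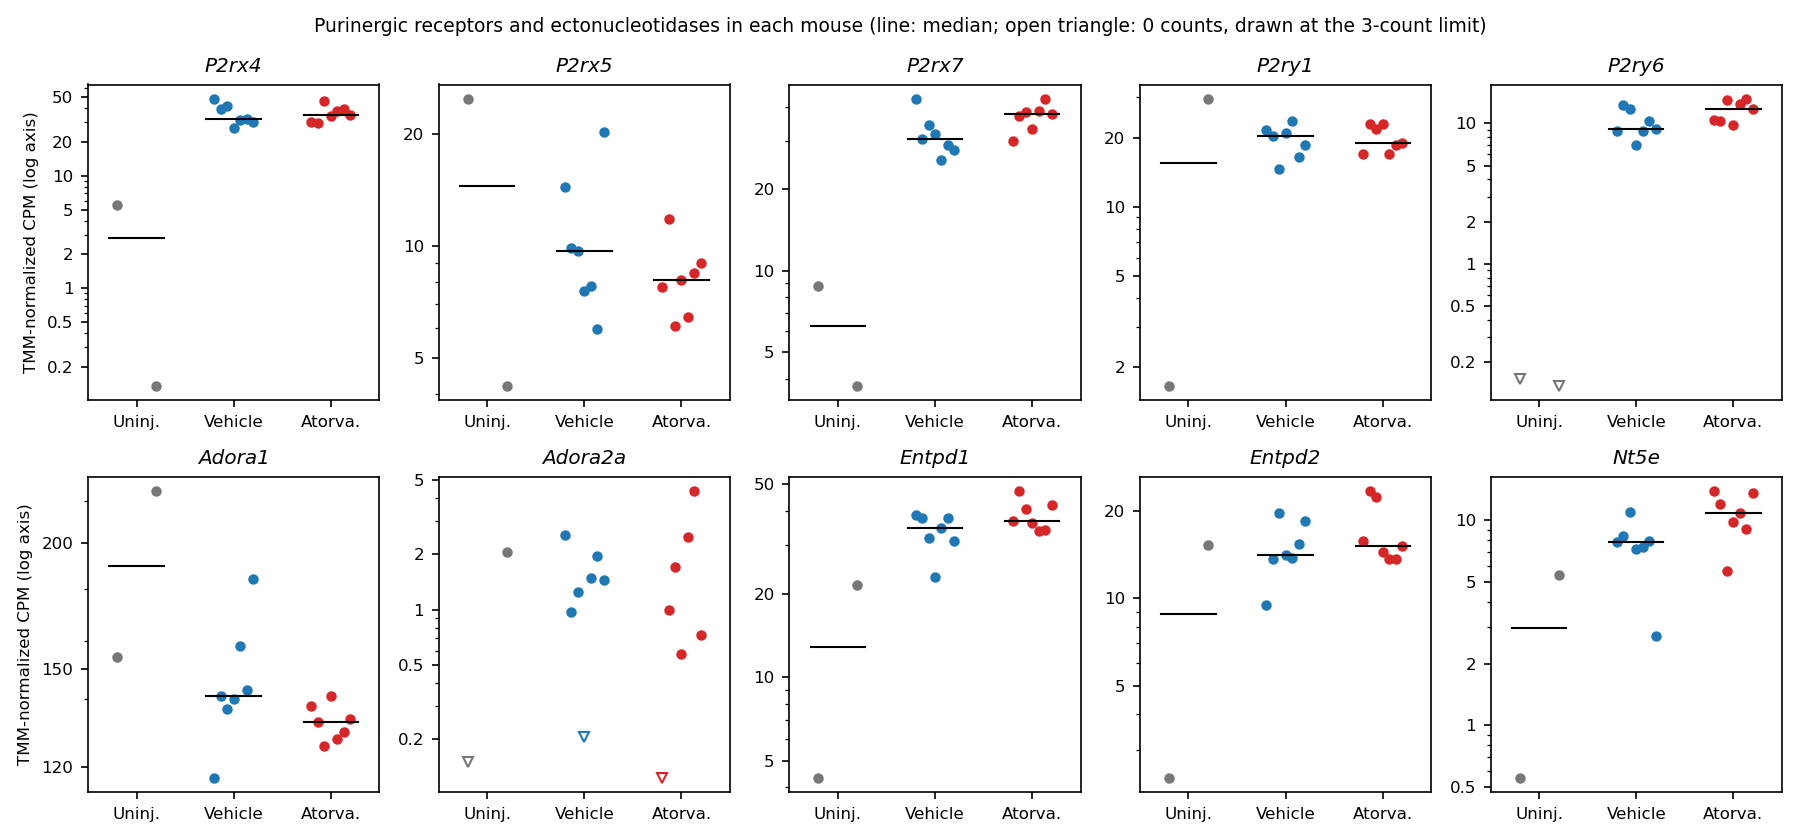
Normalized level of each gene (y axis, TMM-normalized CPM, log axis) in each mouse by group, 1 point per mouse, with the group median as a line. P2rx4, P2rx7 and P2ry6 lie above both Uninjured Control mice in all 14 SCI mice, and open triangles mark 0 counts, drawn at the level of 3 counts in that library.

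Among the channels, P2rx7 encodes a receptor that opens at high ATP and drives release of interleukin-1 from microglia and macrophages. Its level was lowest at 25.6, 30.6 at the median and highest at 43.0 CPM in SCI + Vehicle, 30.1, 37.9 and 43.0 CPM in SCI + Atorvastatin, and 8.74 and 3.76 CPM in the Uninjured Control mice. Every SCI mouse lay above both Uninjured Control mice, and the 2 SCI groups overlapped. The log2 fold change over uninjured cord was 2.34 (SE 0.374, adjusted p = 0.00124) for SCI + Vehicle and 2.58 (SE 0.327, adjusted p = 0.000225) for SCI + Atorvastatin, edgeR quasi-likelihood test throughout. Against Uninjured Control replicate 1 alone these were 1.85 and 2.08, and against replicate 2 alone 3.07 and 3.31.

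P2rx4 encodes a channel that microglia raise after nerve injury and that is known for its part in neuropathic pain. Its levels ran from 26.7 (median 31.9) to 48.3 CPM in SCI + Vehicle and from 29.3 (median 34.4) to 46.0 CPM in SCI + Atorvastatin, and were 5.52 and 0.136 CPM in the Uninjured Control mice. The groups did not overlap with the controls, and the injured groups covered nearly the same range. The log2 fold change was 3.66 (SE 0.916, adjusted p = 0.0128) with vehicle and 3.68 (SE 0.915, adjusted p = 0.00955) with atorvastatin. Only 3 counts stood behind the level in Uninjured Control replicate 2, and against replicate 1 alone the values were 2.67 and 2.70. The deposited tables disagree for this gene, with 110 counts but a TPM listed at 0 in replicate 1, and 3 counts and a TPM of 0.2 in replicate 2.

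P2rx5, another ATP-gated channel (chromosome 11, 73160421 to 73172685, plus strand), did not pass the test. It was measured at 5.98 (median 9.67) to 20.2 CPM in SCI + Vehicle and 6.1 (median 8.1) to 11.8 CPM in SCI + Atorvastatin. The Uninjured Control mice lay at 24.8 and 4.21 CPM, 1 above and 1 below every SCI mouse, so the direction turned with the control used. The log2 difference was -0.43 (adjusted p = 0.642) with vehicle and -0.80 (adjusted p = 0.255) with atorvastatin, -1.21 and -1.58 against replicate 1 alone, and 1.34 and 0.98 against replicate 2 alone. In replicate 2 the tables held 93 counts and a TPM listed at 0.

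Of the P2Y receptors, P2ry6 (chromosome 7, 100937630 to 100974649, minus strand) binds UDP and is known for triggering uptake of debris by microglia. It had no count in either Uninjured Control mouse. By counting error alone this allows 3 counts in each library, or 0.143 CPM on average. In SCI + Vehicle it was measured at 7.01 (median 9.15) to 13.5 CPM, and in SCI + Atorvastatin at 9.79 (median 12.6) to 14.9 CPM. The mean level was 70.0-fold this limit in SCI + Vehicle and 86.5-fold in SCI + Atorvastatin. These folds are no firm lower bounds, because a gene at 0 in 1 control could be far above 3 counts in the other. In Uninjured Control replicates 1 and 2, Alpl had 448 and 0 counts and Panx1 had 0 and 314. The edgeR test on the counts of P2ry6 gave adjusted p = 0.000102 with vehicle and 1.75e-05 with atorvastatin. All 14 SCI mice held the gene, and the deposited TPM was 0 in both Uninjured Control mice as well.

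P2ry1 (chromosome 3, 61002795 to 61008982, plus strand), a receptor for ADP on astrocytes and neurons, did not pass the test in any comparison. It ran from 14.6 (median 20.4) to 23.7 CPM with vehicle and 16.9 (median 18.9) to 23.0 CPM with atorvastatin. The Uninjured Control mice were far apart, at 1.66 and 29.5 CPM (33 and 652 counts), the lowest and the highest of all 16 mice. The log2 difference of 0.30 with vehicle (adjusted p = 0.788) became 3.54 against replicate 1 alone and -0.61 against replicate 2 alone, so no direction can be given.

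Among the ectonucleotidases, Entpd1 (chromosome 19, 40612366 to 40741602, plus strand) encodes CD39, the enzyme of microglia and endothelium that takes ATP and ADP to AMP. It was measured at 23.1 (median 34.8) to 38.8 CPM with vehicle and 33.9 (median 36.7) to 47.2 CPM with atorvastatin, against 4.32 and 21.5 CPM in the Uninjured Control mice. All 14 SCI mice were above both controls in CPM. In TPM the lowest SCI + Vehicle mouse, at 10.9, was below the higher control at 13.6. With atorvastatin Entpd1 rose by 1.59 on the log2 scale (SE 0.474, adjusted p = 0.0227), and with vehicle the value was 1.36 (SE 0.492, adjusted p = 0.0594), which missed the threshold. DESeq2 on the same counts called it with vehicle (adjusted p = 0.0155), and over the 10 alternatives that keep all mice the adjusted p ran from 0.00792 to 0.581, past the threshold in 5 of them. Against Uninjured Control replicate 1 alone the value with vehicle was 2.94, and against replicate 2 alone 0.63. Whether the 2 SCI groups differ is a separate test, given further on, and it did not pass.

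Entpd2 (chromosome 2, 25395874 to 25401321, plus strand), an enzyme that prefers ATP and leaves ADP, was at 9.49 (median 14.1) to 19.7 CPM with vehicle and 13.7 (median 15.2) to 23.4 CPM with atorvastatin. The controls were 2.41 and 15.3 CPM, so the groups overlapped, while in TPM all 7 atorvastatin mice were above both controls. The log2 difference was 0.73 (adjusted p = 0.375) and 0.94 (adjusted p = 0.221). Limma on log2(TPM + 1) called it in both (adjusted p = 0.0316 and 0.016), and over the 10 alternatives that keep all mice the adjusted p ran from 0.0316 to 0.921 and from 0.016 to 0.846, past the threshold in 2 of them in each comparison. Against Uninjured Control replicate 1 alone it was 2.62 with vehicle and 2.81 with atorvastatin, and against replicate 2 alone -0.05 and 0.16.

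Nt5e (chromosome 9, 88327197 to 88372092, plus strand), the enzyme that forms extracellular adenosine, was measured at 2.73 (median 7.81) to 11.0 CPM in SCI + Vehicle and 5.65 (median 10.9) to 13.9 CPM in SCI + Atorvastatin. The Uninjured Control mice were at 0.552 and 5.44 CPM, which leaves all 7 atorvastatin mice above both and 6 of 7 vehicle mice. The log2 difference of 1.31 with vehicle (adjusted p = 0.252) and 1.85 with atorvastatin (adjusted p = 0.0735) did not pass. For atorvastatin, DESeq2 called it (adjusted p = 0.0185). Over the 10 alternatives that keep all mice the adjusted p ran from 0.0185 to 0.842, and Nt5e was called in 5 of them. Both values kept their sign against either control mouse alone, at 3.74 and 0.45 with vehicle and 4.27 and 0.99 with atorvastatin.

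Adora1 (chromosome 1, 134199223 to 134235431, minus strand), the inhibitory adenosine receptor of synapses, had the highest level per length of the 10 genes in every group, with a mean of 101 TPM in SCI + Vehicle, 90.0 in SCI + Atorvastatin and 113 in Uninjured Control, and its range did not meet that of the next gene in any of them. In CPM it ran from 117 (median 141) to 184 with vehicle, from 126 (median 133) to 141 with atorvastatin, and was 154 and 225 in the controls. All 7 atorvastatin mice were below both controls, while vehicle replicates 5 and 7, at 158 and 184, were above the lower one. Adora1 fell by 0.50 on the log2 scale with atorvastatin (SE 0.120, adjusted p = 0.00774) and differed by -0.39 with vehicle (SE 0.165, adjusted p = 0.0955). With vehicle it was called at -0.46 without SCI + Vehicle replicate 7, the highest of that group. Against Uninjured Control replicates 1 and 2 alone the vehicle value was -0.097 and -0.64. The atorvastatin value was -0.22 and -0.75, the first of these smaller than the limit of a 1.25-fold change. In TPM the controls were 78.8 and 148, which overlap the atorvastatin range of 81.2 to 98.3. Limma on log2(TPM + 1) did not call Adora1 with atorvastatin (-0.27, adjusted p = 0.293). Over the 10 alternatives that keep all mice the adjusted p ran from 0.000312 to 0.773, and the call was lost in 4 of them.

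Adora2a (chromosome 10, 75316877 to 75334784, plus strand), the stimulatory adenosine receptor, had few counts. It had 0 to 90 counts per SCI mouse, with 0 in 1 mouse of each injured group, and 0 and 45 counts in the Uninjured Control mice. Neither comparison with uninjured cord passed (adjusted p = 0.874 and 0.807). The 95% intervals of the log2 difference, -3.01 to 3.85 and -3.05 to 4.26, left the direction undetermined at this depth.

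Injury with atorvastatin was compared with the same 2 Uninjured Control mice. P2rx4, P2rx7, P2ry6 and Entpd1 rose and Adora1 fell, so 4 of 10 genes were higher and 1 lower, where 24.9% of all genes tested were higher and 14% lower. Of these 5 genes, P2rx4 and P2ry6 met the filter on TPM in the SCI groups alone, so these counts too are a description. The groups did not overlap in CPM for 5 genes that were higher (P2rx4, P2rx7, P2ry6, Entpd1 and Nt5e) and 1 that was lower (Adora1), beside 29.8% and 14.2% of all genes. The median log2 fold change of the 10 genes was 1.27, against 0.206 over all genes tested. Against each control mouse alone, 6 of 10 genes kept 1 direction with vehicle and 7 of 10 with atorvastatin, a description of log2 differences only.

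**Figure D2:**
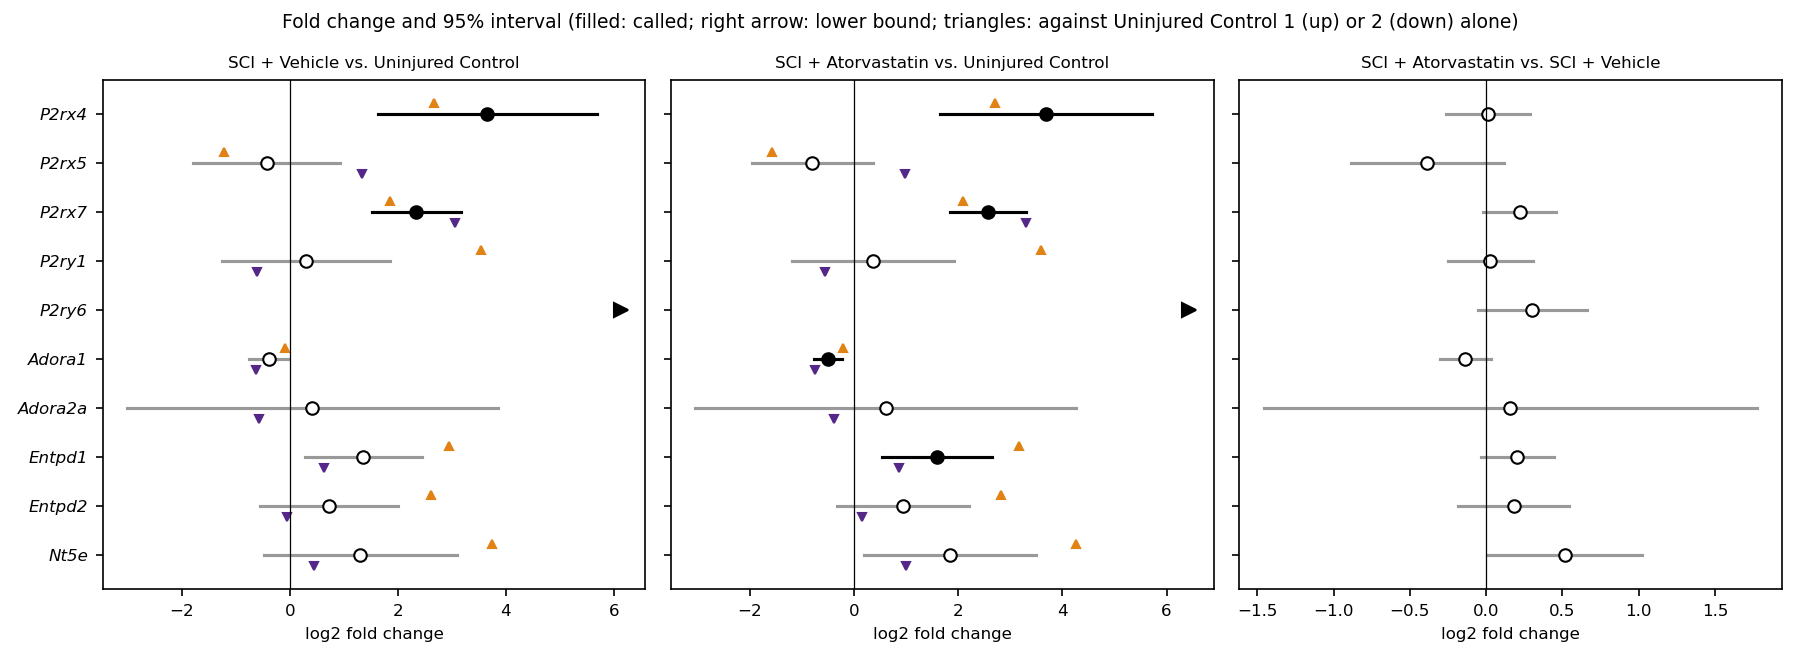
Log2 fold change (x axis) of the 10 genes (rows) in the 3 comparisons (panels), with 95% intervals as bars and filled circles where called. A right-pointing arrow marks P2ry6 at its fold over the limit of 3 counts per control library, which covers counting error only. Triangles pointing up and down give the value against Uninjured Control replicate 1 or 2 alone. They lie on opposite sides of 0 for P2rx5 and P2ry1, and with vehicle also for Entpd2 (2.62 and -0.05). Values against a control with at most 3 counts are not drawn.

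Markers of cell types moved alongside these genes, and in bulk tissue fewer cells of a type and less RNA per cell cannot be told apart. Markers of microglia or macrophages (10 genes, Csf1r, Cx3cr1 and Aif1 first) summed to 119 and 200 CPM in the controls, 915 to 1290 CPM in SCI + Vehicle and 1120 to 1560 CPM in SCI + Atorvastatin. Of the 10, 7 rose with vehicle and 8 with atorvastatin, and Csf1r went from 43.3 and 50.0 CPM to 231 or more. P2rx4, P2rx7, P2ry6 and Entpd1 were higher in the same mice, and the part of this marker level in their rise was not tested. Neuron markers (8 genes, Rbfox3, Snap25 and Syt1 first) fell for 6 of 8 in both comparisons, from 9860 and 11000 CPM to 5630 to 9040 with vehicle and 5350 to 6740 with atorvastatin, beside the lower Adora1. None of these microglia, macrophage or neuron markers was at 0 in all mice of a group. Mbp, of myelin, also fell with atorvastatin, by 0.34 (adjusted p = 0.00478), from 8000 and 8610 CPM to 5890 to 6900 CPM. The part of either marker in the Adora1 difference was not tested. Of the astrocyte markers (Gfap, Aqp4 and Slc1a2 first) 4 of 8 rose in both comparisons, Gfap from 1670 and 2230 CPM to 6120 CPM or more, while 4 differed by less than 0 with vehicle and 3 with atorvastatin, none of them called. Slc1a2 was one of these, at 3690 and 4330 CPM in the controls and a median of 3500 CPM with vehicle.

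Among the 14 SCI mice, log2 CPM of the 10 genes were set against the mean log2 CPM of the microglia or macrophage markers, with group means removed. The p-values were adjusted over 20 relations, these 10 and 10 with another marker list that is not reported here, and none passed the adjusted threshold by Pearson's r or Spearman's rho. Adora1 gave r = -0.504 (permutation p = 0.0656, adjusted p = 0.179, rho = -0.591, p = 0.0294, adjusted p = 0.196) and r = -0.233 without the 2 mice farthest from the median. Entpd1 gave r = 0.511 (permutation p = 0.0623, adjusted p = 0.179, rho = 0.547, p = 0.0461, adjusted p = 0.231) and r = 0.609 without them. Adora2a gave r = 0.498 (permutation p = 0.0715) and 0.701 without them, and P2rx5 r = -0.464 (permutation p = 0.0932) and -0.042. For P2ry1, Entpd2 and Nt5e r was -0.006, 0.156 and 0.029. P2rx7 gave r = 0.307 (permutation p = 0.286, adjusted p = 0.519). P2ry6 gave r = 0.615 (permutation p = 0.0195, adjusted p = 0.101, rho = 0.591, p = 0.0292, adjusted p = 0.196) and r = 0.638 without the 2 mice farthest from the median. P2rx4 gave r = 0.593 (permutation p = 0.0252, adjusted p = 0.101, rho = 0.644, p = 0.0159, adjusted p = 0.196). Without those 2 mice, SCI + Atorvastatin replicate 3 and SCI + Vehicle replicate 7, its r was lower, at 0.379. Within SCI + Atorvastatin r of P2rx4 was 0.75 and within SCI + Vehicle 0.481.

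Atorvastatin was compared with vehicle in injured cord to ask whether treatment moved these genes. None of the 10 was called at an unadjusted p below 0.001, a rule met by 0.106% of all genes tested (0.087% higher and 0.0186% lower). By an adjusted p of 0.05, 0 of 16091 genes passed with edgeR, and 0 with DESeq2, limma and voom. An unadjusted p below 0.05 was found for 1 of the 10 genes, Nt5e, and for 7.03% of all genes. The values of all 10 genes overlapped between the SCI groups in CPM and in TPM, where 0.0559% of all genes were separated upwards in CPM and 0.0311% downwards. The log2 differences were positive for 8 genes and negative for 2, with a median of 0.169 against -0.0014 over all genes. Marker levels differed in the same comparison, positive for 10 of 10 microglia or macrophage markers (median 0.139) and negative for 8 of 8 neuron markers (median -0.157), with none called, and their part in the shift was not tested.

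Nt5e was higher with atorvastatin by 0.51 on the log2 scale (95% interval 0.003 to 1.02, unadjusted p = 0.0488, adjusted p = 0.708), and above the vehicle median in 6 of 7 atorvastatin mice. Without SCI + Vehicle replicate 7, the mouse with the lowest level at 2.73 CPM, it was 0.37 (unadjusted p = 0.0819). Fibroblast markers (8 genes, Col1a1, Col1a2 and Col3a1 first) were also higher with atorvastatin in all 8 genes, with a median log2 difference of 0.82 and none called, and summed to 1380 to 2900 CPM against 405 to 1790. SCI + Vehicle replicate 7 was the lowest SCI mouse for them (405 CPM), and also for microglia or macrophage (915 CPM) and endothelium markers (151 CPM). It was the highest SCI mouse for neuron markers, at 9040 CPM. The highest Nt5e level, 13.9 CPM, was in SCI + Atorvastatin replicate 1, where fibroblast markers summed to 1440 CPM. The part of fibroblast RNA, or of other cell types, in the Nt5e difference was not tested.

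**Figure D3:**
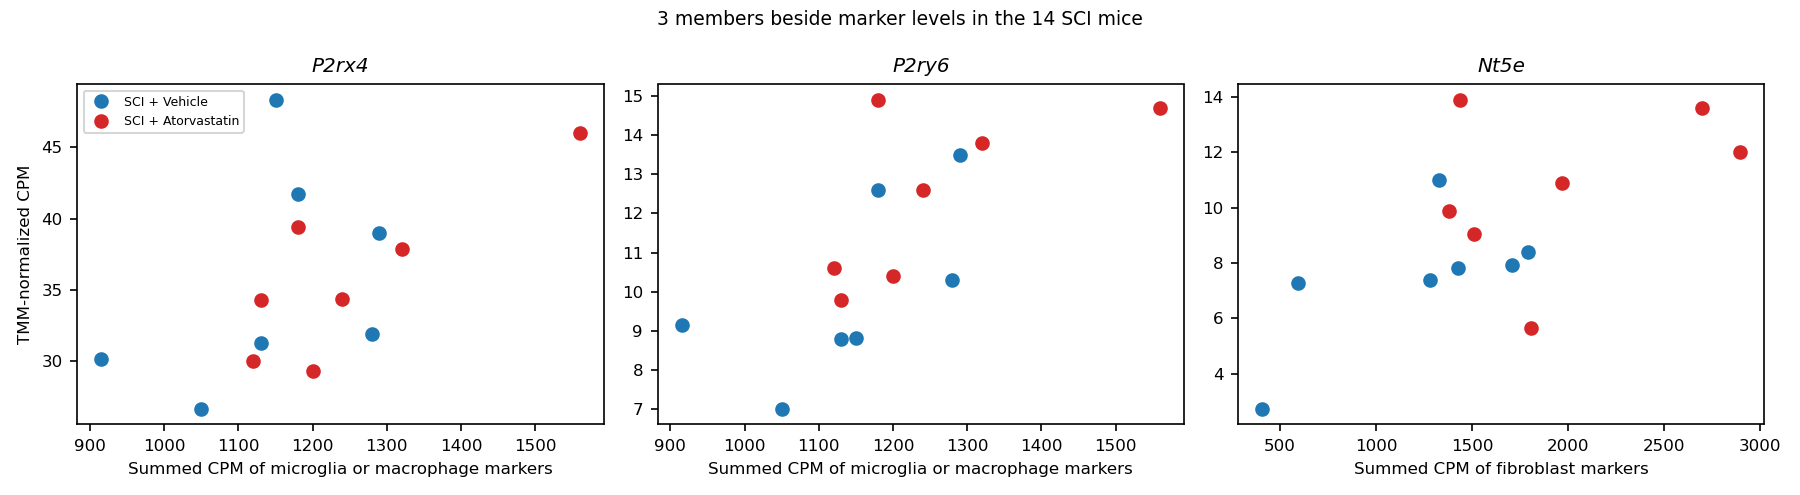
Levels of P2rx4 and P2ry6 (y axis, TMM-normalized CPM) against summed microglia or macrophage markers, and of Nt5e against summed fibroblast markers (x axis, CPM), in the 14 SCI mice, 1 point per mouse. The lowest Nt5e level, 2.73 CPM, is in the mouse with the lowest fibroblast sum, 405 CPM, and the highest, 13.9 CPM, stands at a sum of 1440 CPM.

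For the other genes the intervals give the range of differences that the data allow. P2rx4 differed by 0.01 (95% interval -0.27 to 0.29) and P2ry1 by 0.03 (-0.25 to 0.30). P2rx7 differed by 0.22 (-0.02 to 0.46, adjusted p = 0.737), P2ry6 by 0.30 (-0.05 to 0.66, adjusted p = 0.744), with all 7 atorvastatin mice above the vehicle median, and Entpd1 by 0.20 (-0.04 to 0.45, adjusted p = 0.747). Adora1 differed by -0.14 (-0.30 to 0.03) and P2rx5 by -0.39 (-0.89 to 0.11), and neither passed. Entpd2 differed by 0.18 (-0.18 to 0.54). Adora2a had an interval of -1.46 to 1.78, too wide to tell any direction.

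Ratios within a mouse compare enzymes or channels per length, and 3 were formed from TPM. Entpd1 over Nt5e, the upstream against the downstream step, was 1.64 ± 0.451 (SD, log2 scale, n = 7) with atorvastatin and 1.84 ± 0.669 (n = 7) with vehicle, a difference of -0.209 (exact two-sided permutation test, p = 0.516, adjusted p = 0.575). Entpd1 over Entpd2 differed by 0.109 (exact permutation p = 0.575, adjusted p = 0.575) and P2rx7 over P2rx4 by 0.304 (exact permutation p = 0.234, adjusted p = 0.575). P2rx7 over P2rx4 was 0.217 in SCI + Vehicle replicate 7 and between -1.48 and -0.013 in the other SCI mice. Its TPM of P2rx7 was 42.0, while its CPM of 27.8 was below the SCI + Vehicle median, and CPM per TPM of P2rx7 varied 2.88-fold between SCI mice.

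**Figure D4:**
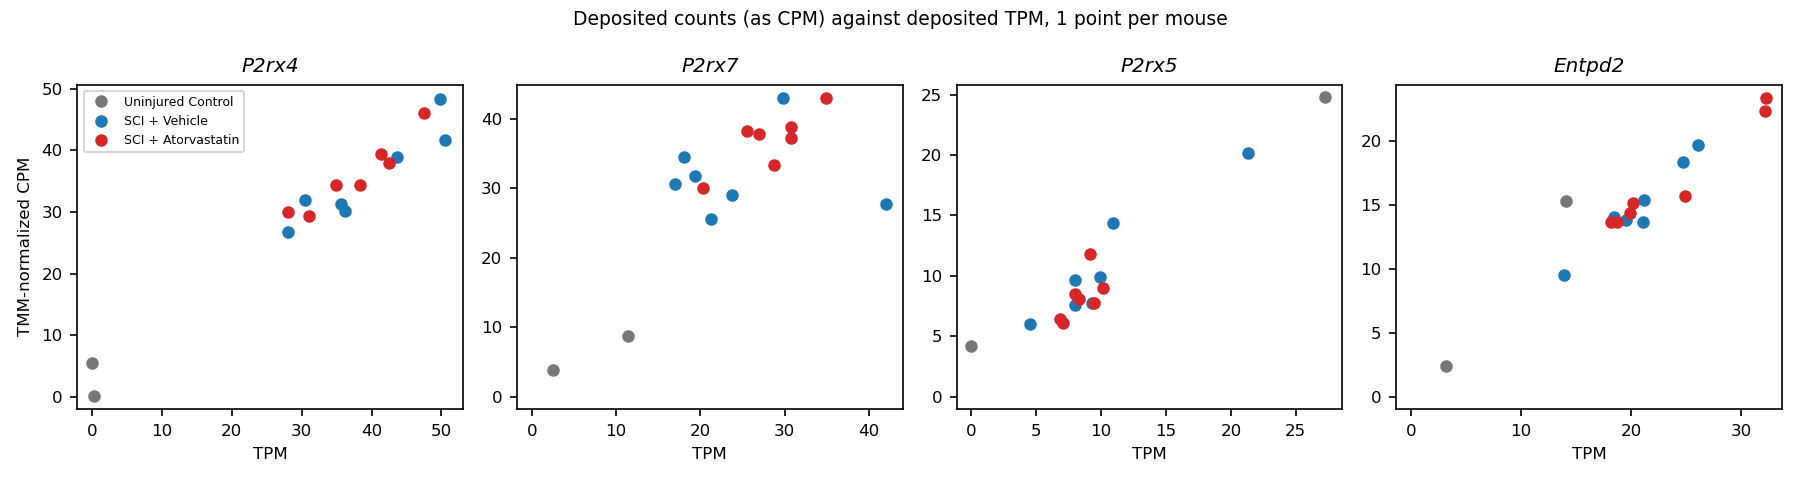
CPM from the deposited counts (y axis) against the deposited TPM (x axis) for P2rx4, P2rx7, P2rx5 and Entpd2, 1 point per mouse. SCI + Vehicle replicate 7 stands apart for P2rx7 at a TPM of 42.0 and a CPM of 27.8, and a TPM of 0 stands beside counts for P2rx4 in Uninjured Control replicate 1 and for P2rx5 in replicate 2.

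In SCI + Vehicle the order of mean TPM ran from Adora1 (101) to P2rx4 (39.2), P2rx7 (24.5), Entpd2 (20.7), Entpd1 (18.6), P2ry6 (13.6), P2ry1 (13.2), P2rx5 (10.3), Nt5e (5.32) and Adora2a (1.46). Only Adora1 was separated from its neighbour, and every other pair of neighbours had overlapping ranges. With atorvastatin the order was the same, with P2ry1 also apart from P2rx5. In the Uninjured Control mice the deposited TPM put P2ry6 (0) last and P2rx4 (0.1) before it, but the place of P2rx4 rests on the TPM of 0 that stands beside 110 counts in replicate 1.

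The rest of the pathway was read from 33 other genes in 4 lists, of which 27 were tested. With vehicle 8 rose and 1 fell, 9 of 27 beside 29.8% of all genes, and with atorvastatin 9 rose and 3 fell, 12 of 27 beside 38.9%. Of the genes called, 5 with vehicle (P2rx3, P2ry2, P2ry12, Acpp and Ada) and 5 with atorvastatin (P2ry2, P2ry12, Acpp, Adora3 and Ada) met the filter on TPM in an SCI group and not in Uninjured Control. They had to differ, so the counts, and the adjusted p of these genes below, are a description. None was called between treatments. The median log2 difference was 0.542 with vehicle and 0.497 with atorvastatin. Setting genes at 0 in the controls to their folds over the limit of 3 counts could not move either median, because these genes stay above it.

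Other P2 receptors (10 genes, 6 tested) included the receptors P2ry12 and P2ry13 of resting microglia. P2ry13 rose from 4.52 and 6.39 CPM to 11.0 to 16.5 with vehicle and 14.4 to 17.7 with atorvastatin, a log2 change of 1.33 (SE 0.365, adjusted p = 0.0196) and 1.59 (SE 0.283, adjusted p = 0.00155). P2ry12 rose from 1.91 and 0 CPM to a median of 16.9 CPM with vehicle (adjusted p = 0.0208) and 17.8 CPM with atorvastatin (adjusted p = 0.0114). P2ry2, a receptor for ATP and UTP, had no count in either control. Its mean level was 14.4-fold the limit of 3 counts in SCI + Vehicle and 21.9-fold in SCI + Atorvastatin. This limit covers counting error only. The edgeR test on the counts gave adjusted p = 0.00287 and 0.000802. P2rx3, a channel of pain-sensing neurons, met the filter in SCI + Vehicle alone (mean TPM 1.46, with 6.51 in replicate 3, against 0.93 in SCI + Atorvastatin), so no call is drawn from it. It had no count in the controls, 1.0 (median 1.49) to 10.8 CPM in SCI + Vehicle and 0 (median 1.13) to 3.77 CPM in SCI + Atorvastatin.

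Of the other enzymes that act on nucleotides (10 genes, 9 tested), Acpp, a phosphatase, rose from no count to a median of 2.35 CPM with vehicle (adjusted p = 0.00606) and 3.57 CPM with atorvastatin (adjusted p = 0.00124). Enpp1, which makes AMP and pyrophosphate from ATP, rose with atorvastatin by 0.90 (SE 0.214, adjusted p = 0.00737). With vehicle Enpp1 differed by 0.58 (SE 0.327, adjusted p = 0.207) and was not called. Adenosine handling (8 genes, all tested) showed Slc29a3, a carrier of nucleosides in lysosomes, at 8.99 and 8.88 CPM in the controls and at 43.8 to 62.0 CPM with vehicle. Its log2 change was 2.55 (SE 0.216, adjusted p = 5.52e-05) with vehicle and 2.56 (SE 0.144, adjusted p = 4.44e-06) with atorvastatin. Ada, which breaks down adenosine, had no count in the controls. Its mean in SCI + Vehicle was 29.7-fold the limit of 3 counts, and its mean in SCI + Atorvastatin 29.5-fold. That limit again covers counting error only. For Ada the edgeR test on the counts gave adjusted p = 0.000624 and 0.000197. Adora3 met the filter in SCI + Atorvastatin alone (mean TPM 1.48, against 0.819 with vehicle), so no call is drawn from it, and its tables disagree, with 5 counts at a TPM of 2.32 in 1 mouse and 0 counts at 0.79 in another. With atorvastatin, Slc29a2, a nucleoside carrier, fell by 1.60 (adjusted p = 0.0315), where the controls themselves were 5.66 and 32.1 CPM. With vehicle Slc29a2 differed by nearly as much, -1.53 (adjusted p = 0.0741), which missed the threshold.

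Genes of ATP release (5 genes, 4 tested) moved in both directions. Panx2, a pannexin of neurons, fell by 0.73 with vehicle (SE 0.241, adjusted p = 0.0418) and by 0.97 with atorvastatin (SE 0.133, adjusted p = 0.00034). Gja1, a connexin of astrocytes, rose by 0.36 (adjusted p = 0.027) and 0.39 (adjusted p = 0.00243). Lrrc8a, a subunit of volume-regulated channels, fell by 0.45 with atorvastatin (adjusted p = 0.00507). With vehicle Lrrc8a differed by -0.34 (adjusted p = 0.123) and was not called.

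The 3 genes nearest to each of the 10 were found by the root mean square difference of log2 CPM over the 16 mice, each gene centred on its own mean, a description over mice that share libraries and the 2 controls. For P2ry6 they were Pon3 (0.266), Cd37 (0.277) and Tifab (0.282), each with 0 counts in both controls. For P2rx7 they were Qars (0.183), Apoe (0.197) and Map4k5 (0.234), and for Entpd1 Nrp1 (0.163), Ibtk (0.185) and Glce (0.201). Adora1 was nearest to Nacc2 (0.0864), the myelin gene Mobp (0.0881) and the potassium channel gene Kcna2 (0.0977). P2rx4 was nearest to Rwdd3, Cyp39a1 and Pdpn (0.311 to 0.343), P2rx5 to Ddx25, Mkrn2 and Snrpd2 (0.308 to 0.338) and P2ry1 to Cwc22, Zfp26 and AI987944 (0.189 to 0.252). Entpd2 was nearest to Fhdc1, Herpud2 and Cacul1 (0.219 to 0.243), Nt5e to D11Wsu47e, Tm6sf1 and Fnip2 (0.347 to 0.392), and Adora2a, at few counts, to Map3k7cl, Lrrc74b and Dscc1 (1.09 to 1.46).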

How the data were processed

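Whole-number counts and TPM were deposited by the authors for 1 library per mouse. The sequencing kit keeps strand, but the strand setting of the counting and the step that made whole numbers are not given in the sources used here. Per the labels and the study's methods, the authors used FastQC 0.12.1, Trimmomatic 0.38, STAR 2.5.4b (genome build mm10) and RSEM 1.3.1. The counts were not normalized, and TPM were normalized by the authors for length and depth. Overlapping genes in the annotation include Npdc1 with Entpd2, Mybph with Adora1, Gm37035 with P2ry1 and Gm44545 with P2ry6, whose reads may not be separable. The labels give each mouse's group.

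Here, edgeR 4.0.16 (R 4.3.3), fitted to only the samples of each comparison after TMM scaling, gave quasi-likelihood tests of 16091 genes, with Benjamini-Hochberg adjustment. DESeq2 1.42.0, limma 3.58.1 on log2(TPM + 1), voom with group quality weights, other gene filters and scalings, the replicate number as a block, and each mouse left out in turn were alternatives. With DESeq2 the adjusted p was left missing where the tool gave none. TPM ratios used a pseudocount of 0.1 and an exact permutation test, and correlations used 100000 permutations. SE were derived from the quasi-likelihood F statistic. The 95% intervals come from the fits over mice and include the spread between mice, whereas the limit of 3 counts that a count of 0 allows covers counting error only. Scripts were tested on simulated data. Positions are those of GRCm38. The 10 genes, the 4 lists of other purinergic genes and the 7 marker lists were chosen with earlier results of these data known. Named genes are the 10, the called genes of the 4 lists, the first 3 of each marker list and the 3 genes nearest to each of the 10 over the 16 mice. Endothelium markers (Pecam1, Cdh5 and Cldn5 first) were higher for 1 of 8 with vehicle and 3 of 8 with atorvastatin and fibroblast markers for 0 and 6 of 8. The results of 1 marker list are not reported here.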

Additional observations from a re-analysis of the deposited data

How the results depend on the processing

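Against uninjured cord, P2rx4, P2rx7 and P2ry6 kept their direction under every alternative run, and their calls in both comparisons were lost only with voom with group quality weights, which called 0.814% (vehicle) and 0.907% (atorvastatin) of all genes, and with the replicate block. The filter of mean TPM above 1 in every condition leaves out P2rx4 and P2ry6. The count of the 10 genes called with vehicle became 5 with all 3 groups in 1 fit (40.9% of all genes) and with limma on log2(TPM + 1) or log2(TPM + 0.1) (27.7% and 30.6%), 1 with mean TPM above 1 in every condition (19.1%), and 0 with voom. With atorvastatin it became 3 with that filter (29.4%) and 0 with voom. Of the other purinergic genes, 3 were called with vehicle and 7 with atorvastatin with that filter, 5 and 7 when 10 counts were required per mouse (26.4% and 37.1% of all genes), and 0 and 0 with voom. Apart from the filters, whose construction leaves out genes, the cause was not tested. Leaving out 1 mouse gave 3 to 7 (vehicle) and 5 to 9 (atorvastatin) of the 10, and 7 to 18 and 11 to 19 of the others, with the highest counts all without Uninjured Control replicate 2, where 48.5% and 61.1% of all genes were called. Between treatments no gene of either set was called under any alternative. P2rx5 reversed with vehicle to 0.97 and 2.51 (limma, pseudocounts 1 and 0.1) and 0.036 (voom), and with atorvastatin to 0.81 and 2.35 (limma). Between treatments P2rx4 reversed to -0.045 and -0.046 (limma) and -0.0025 (voom), and Adora2a to -0.045 and -0.14 (limma) and -0.47 (voom). Without 1 mouse, P2rx5 ran from -1.21 to 1.34 with vehicle and -1.58 to 0.98 with atorvastatin, P2ry1 from -0.61 to 3.54 and -0.56 to 3.58, Adora2a from -0.57 to 7.92 and -0.39 to 8.14, and Entpd2 with vehicle from -0.047 to 2.62, each turning with the control left out. The high Adora2a values are fitted against a control with no count and are no bounds. Between treatments, without 1 mouse, P2rx4 ran from -0.058 to 0.099, P2ry1 from -0.041 to 0.081 and Adora2a from -0.36 to 0.37. The 3 ratios kept their sign without any 1 mouse, from -0.374 to -0.0315, 0.0119 to 0.192 and 0.177 to 0.459. The number of relations past the adjusted threshold was 1 with log2(TPM + 1) and 0 to 3 without 1 mouse, the highest without SCI + Vehicle replicate 6.

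Replicate numbers are shared across groups, but same-numbered mice did not deviate together (correlations of their deviations from -0.138 to 0.0784), so the numbers are not taken as pairs. The replicate block gave 0 of the 10 and 0 of the others called against uninjured cord in both comparisons, beside 27 and 0 of 16091 genes, P2rx5 at 0.24 with vehicle and Adora2a at -0.85 with atorvastatin.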

Other observations

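P2rx3 and Acpp, a membrane phosphatase that makes adenosine from AMP and is known from pain-sensing neurons of the dorsal root ganglion, were both highest in the same mouse, SCI + Vehicle replicate 3, at 10.8 and 14.3 CPM. In the other SCI + Vehicle mice P2rx3 was 1.0 to 2.77 CPM and Acpp 0.968 to 5.18 CPM. Leaving out that mouse was an alternative chosen after the data were seen. The fold over the Uninjured Control limit, which covers counting error only, then went from 20.0 to 10.8 for P2rx3. For Acpp it went from 30.3 to 18.8. Both genes had no count in either Uninjured Control library.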
